A study of Homo sapiens with 2 samples.

Results

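The 10 genes followed here mark glial cells, neural stem cells or glioma: VIM, NES, GFAP, S100B, CD44, PROM1, SOX2, OLIG2, CHI3L1 and MSI1. They were chosen by name, and all probe sets annotated to 1 of these genes alone were taken, which gave 33 of the 54613 probe sets on the array. U87, a long-established line from a human glioblastoma, was grown in medium with serum. One culture received HOXD9 siRNA-2 and the other a non-silencing control siRNA, both at 50 nM, and RNA was taken on the second day after transfection. HOXD9 is a homeodomain transcription factor, and the arrays were run to look for molecules tied to the cell death seen after its silencing. Each condition was read on 1 Affymetrix Human Genome U133 Plus 2.0 array, so no SD, p-value or test between conditions could be given, and each ratio compares 1 array with 1 array. No second HOXD9 siRNA, untreated culture or stem-like cell culture was analysed here on arrays.

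Vimentin (VIM), nestin (NES) and GFAP are intermediate filament proteins. Nestin is typical of neural stem and progenitor cells, GFAP of astrocytes, and vimentin of mesenchymal cells, immature glia and many cultured lines. S100B is a calcium-binding protein of astrocytes, and OLIG2 and SOX2 are transcription factors that keep neural progenitors and glioma stem cells in an undifferentiated state. PROM1 encodes CD133, a surface protein used to sort glioma stem cells, and MSI1 encodes Musashi-1, an RNA-binding protein of neural stem cells. CD44, a receptor for hyaluronan, and CHI3L1, a secreted chitinase-like glycoprotein also called YKL-40, mark the mesenchymal type of glioblastoma.

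Background was read from 27 control probe sets against Bacillus subtilis genes, and the highest of them read 18.4 on the HOXD9 siRNA array and 11.4 on the control siRNA array. Whether RNA of those genes was spiked in is not stated. HOXD9 itself was dim. Its brighter probe set (205604_at) read 5.58 with HOXD9 siRNA and 19.7 with control siRNA, at least 1.07-fold lower when taken at the limit, and the other read 11.4 with HOXD9 siRNA and 9.33 with control siRNA, within background on both arrays. The arrays therefore gave little check of the silencing, and the label of the HOXD9 siRNA array rests on the submitters' description. Apart from the arrays, the paper reports by qRT-PCR that its siRNAs reduced HOXD9 in U87, at the same time after transfection as the array RNA. In RNA of a whole culture, fewer cells of a type and less RNA per cell cannot be told apart.

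The strongest signals were those of VIM, CD44 and CHI3L1, those of NES were weaker, and the other markers lay at or near background. On the control siRNA array, 22 of the 33 marker probe sets (66.7%) lay above that array's limit, against 64.3% of all probe sets. Counted by gene, 6 of the 10 had at least 1 probe set above it, against 72.5% of all 19775 named genes. The share of probe sets was near that of the whole array. The genes with a probe set above the limit were VIM (2 of 2 probe sets), NES (2 of 2), CD44 (12 of 13), CHI3L1 (3 of 3), SOX2 (2 of 4) and OLIG2 (1 of 2). None of the 7 probe sets of GFAP, S100B, PROM1 and MSI1 did. The signals nearest to the limit were 13.5 on a SOX2 probe set and 15.3 on an OLIG2 probe set above it, and 7.48 on the other OLIG2 probe set below it.

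**Figure D1:**
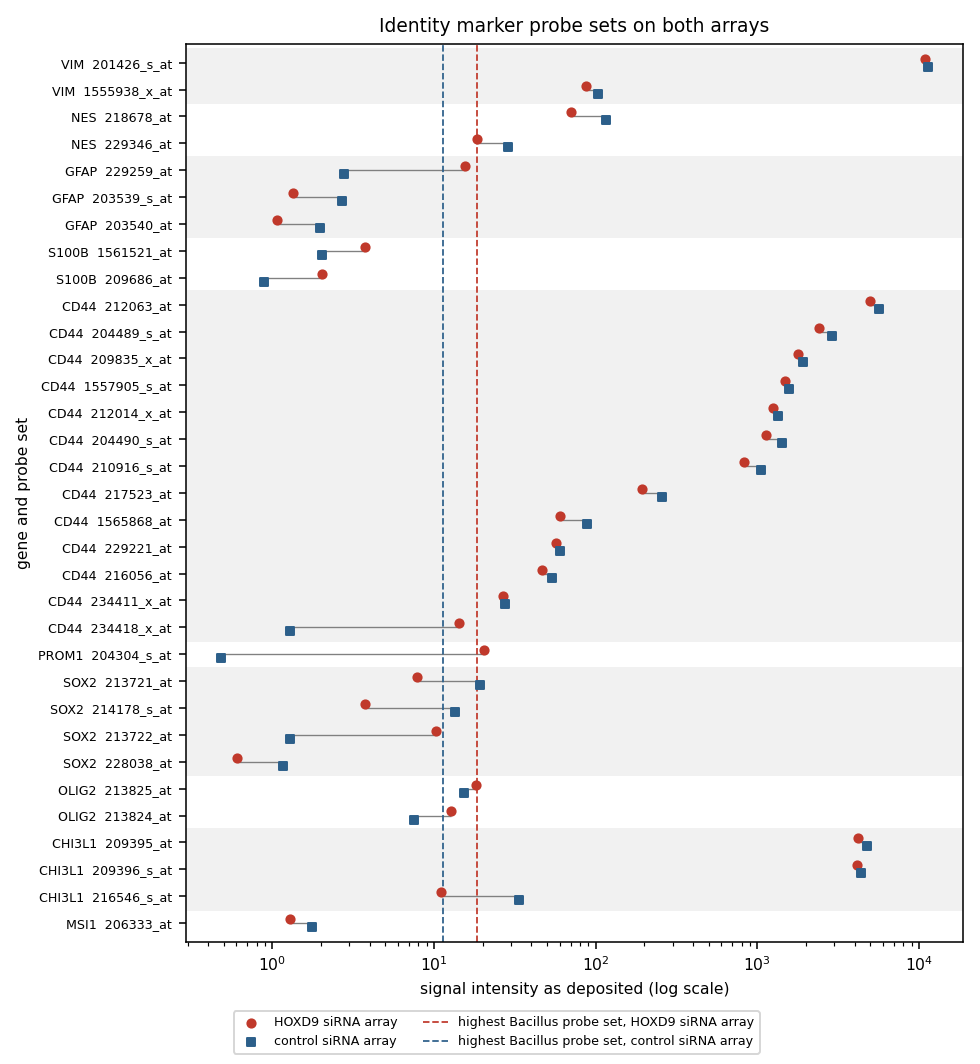
Signal of each of the 33 marker probe sets (rows) on the HOXD9 siRNA array (red circles) and the control siRNA array (blue squares), on a log scale, with the highest Bacillus probe set of each array as a dashed line (18.4 and 11.4). VIM, CD44 and CHI3L1 have the strongest signals on both arrays, whereas the probe sets of GFAP, S100B, SOX2, OLIG2, PROM1 and MSI1 lie below or close to the dashed lines.

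On the HOXD9 siRNA array 19 of the 33 probe sets lay above its limit, against 49.9% of all probe sets, and 18 did so on both arrays. These 18 belonged to VIM, NES, CD44 and CHI3L1, the 4 genes for which a ratio could be measured. None of the 33 probe sets was lower and none higher by more than 2-fold, the threshold of the study, when a signal at background was taken at the limit of its array. Over all 54613 probe sets of the array, also unfiltered, 1433 were lower and 424 higher past that threshold by the same rule. Among all 27307 probe sets that passed the signal filter (a mean signal of at least 19.8), 5.24% read lower and 0.615% higher. Of the 33 marker probe sets, 19 passed that filter. Among those above background on both arrays, the shares were 4.15% lower and 0.560% higher. The filtered probe sets past 2-fold numbered 1432 lower and 168 higher as deposited, but 452 lower and 413 higher once the arrays had been centered on their medians.

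All 18 measured ratios were below 1 in the deposited signals, with log2 ratios (HOXD9 siRNA over control siRNA) from -0.72 to -0.04 and a median of -0.19. Most of the array read lower in the same way, since 79.5% of the 26586 probe sets above background on both arrays had a measured ratio below 1. The median log2 ratio of the probe sets that passed the filter was -0.28, and 12 of the 18 marker probe sets lay above it and 6 below. That median varied with signal, from -0.35 at mean signals between 26.3 and 36.5 to -0.17 at 827 and above. The bright probe sets of VIM, CD44 and CHI3L1 belong to the latter, so the split does not compare probe sets of like signal. The median signal was 18.3 on the HOXD9 siRNA array and 22.5 on the control siRNA array, and how the authors scaled the arrays is not stated. Centering the arrays on their medians brought the median of the filtered probe sets to 0.02, and then 6 of the 18 marker probe sets were lower and 12 higher. The direction of a small ratio therefore rests on the scaling.

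Promoter sequence was looked at for the 4 genes with a measured ratio, because HOXD9 binds DNA through a homeodomain and these are the markers whose ratios can be read beside it. Of the 10 genes, 6 had an entry in the RefSeq promoter table of GRCh38.p14. The 250 bases before the annotated start are shown 5' to 3', and capitals mark 3 motifs searched on both strands. These were TAAT, a core bound by many homeodomains, then TTTAT, related to the core that posterior HOX proteins prefer, and the TATA box, TATAAA. Each TATA box also holds a match to TTTAT on the other strand, and matches can overlap.
NES (GRCh38.p14, chr1:156677408-156677657, minus strand): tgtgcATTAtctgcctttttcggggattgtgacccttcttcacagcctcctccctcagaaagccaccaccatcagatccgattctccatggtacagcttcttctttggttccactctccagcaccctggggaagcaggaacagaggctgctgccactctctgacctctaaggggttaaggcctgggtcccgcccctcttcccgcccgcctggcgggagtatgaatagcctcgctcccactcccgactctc
VIM (GRCh38.p14, chr10:17227991-17228240, plus strand): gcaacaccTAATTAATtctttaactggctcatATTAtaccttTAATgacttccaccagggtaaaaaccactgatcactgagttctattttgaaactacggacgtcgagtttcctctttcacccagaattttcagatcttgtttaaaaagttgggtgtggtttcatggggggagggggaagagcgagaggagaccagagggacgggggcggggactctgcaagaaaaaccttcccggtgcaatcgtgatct
CD44 (GRCh38.p14, chr11:35138921-35139170, plus strand): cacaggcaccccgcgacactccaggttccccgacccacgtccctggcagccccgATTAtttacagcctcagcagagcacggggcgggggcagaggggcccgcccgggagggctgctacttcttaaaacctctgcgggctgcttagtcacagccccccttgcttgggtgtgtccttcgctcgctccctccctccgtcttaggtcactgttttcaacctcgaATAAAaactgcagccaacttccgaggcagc
CHI3L1 (GRCh38.p14, chr1:203186705-203186954, minus strand): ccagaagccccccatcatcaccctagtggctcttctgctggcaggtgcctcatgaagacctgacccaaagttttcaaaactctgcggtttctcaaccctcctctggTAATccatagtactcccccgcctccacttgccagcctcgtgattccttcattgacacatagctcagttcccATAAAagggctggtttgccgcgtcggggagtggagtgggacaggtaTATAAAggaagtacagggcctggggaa
NES, with the lowest ratios, had 1 match to TAAT and none to TTTAT, and VIM had 5 and none. CD44 had 1 match to each, and CHI3L1 1 match to TAAT, 2 to TTTAT and 1 to TATAAA. Among 34943 promoter windows of the same length, 47.5% held TAAT, 32.8% TTTAT and 10.8% TATAAA. The matches describe the letters of these windows and no binding was measured.

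NES had the lowest ratios of the 4 genes. On its brighter probe set (218678_at) the signal was 70.6 with HOXD9 siRNA and 116 with control siRNA, a log2 ratio of -0.72. On the other (229346_at) it was 18.5 with HOXD9 siRNA, just above the limit of 18.4, and 28.8 with control siRNA, a log2 ratio of -0.64. These signals were 60.8% and 64.3% of those with control siRNA. The median of the NES ratios lay 0.40 below the median of all filtered probe sets on the log2 scale. Over 6 array scalings, the deposited one included, the brighter probe set stayed between -0.72 and -0.37 and the other between -0.64 and -0.33. NES was the only one of the 4 genes whose probe sets all read lower under each of these 6 scalings. With no replicates, the only spread at hand was the disagreement between probe sets of 1 gene. Their log2 ratios had a pooled SD of 0.31 in the signal class of the brighter NES probe set and 0.67 in that of the dimmer one. These probe sets were read on the same arrays, so differences between cultures or hybridizations that they share do not enter this spread. It does not measure error between replicates. Among the 2731 probe sets of similar signal to the brighter one, with means between 75.7 and 112, the 5th to 95th percentile of the log2 ratio ran from -0.98 to 0.22. The NES value lay inside that range.

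**Figure D2:**
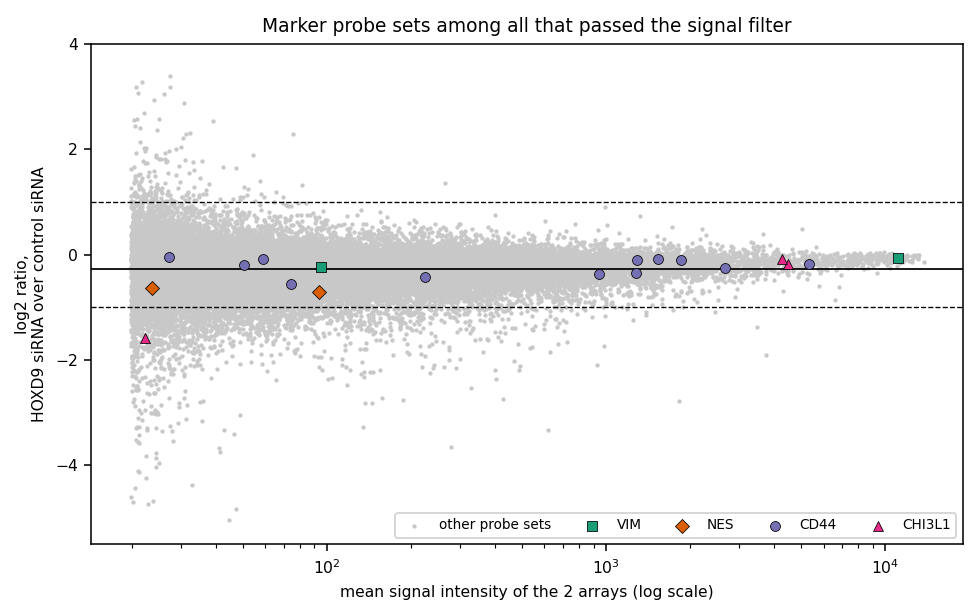
Log2 ratio (y axis, HOXD9 siRNA over control siRNA, deposited signals) against the mean signal of both arrays (x axis, log scale) for every probe set that passed the signal filter, with the probe sets of VIM, NES, CD44 and CHI3L1 in color, the median of all (-0.28) as a solid line and 2-fold as dashed lines. The NES points lie below the solid line at -0.72 and -0.64, and the CHI3L1 point past the lower dashed line is a probe set at background on the HOXD9 siRNA array.

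VIM differed little. Its main probe set (201426_s_at) read 10823 with HOXD9 siRNA and 11349 with control siRNA, a log2 ratio of -0.07. The other (1555938_x_at, of a class of probe sets that can bind several transcripts) read 87.0 with HOXD9 siRNA and 103 with control siRNA, a log2 ratio of -0.24. The 2 ratios lay closer together than the spread of 0.31 between probe sets of a gene in the class of the dimmer one. After centering they were 0.23 and 0.06, so that the direction of VIM turned with the scaling.

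CD44 was read by 13 probe sets, of which 12 were above background on both arrays. The log2 ratios of these 12 had a median of -0.19 and an SD of 0.16, and ran from -0.56 to -0.04. The probe set with the strongest signal (212063_at) read 5012 with HOXD9 siRNA and 5638 with control siRNA, a log2 ratio of -0.17. Another (204489_s_at) read 2414 with HOXD9 siRNA and 2891 with control siRNA, or -0.26. The median of all filtered probe sets was -0.28, and that of the filtered probe sets as bright as these, with mean signals of at least 827, was -0.17. The lowest ratio came from 1565868_at, with signals of 60.0 with HOXD9 siRNA and 88.7 with control siRNA, and the next lowest, -0.42, from 217523_at, with 193 with HOXD9 siRNA and 257 with control siRNA. Against these, 234411_x_at read 26.8 with HOXD9 siRNA and 27.6 with control siRNA, a log2 ratio of -0.04. After centering, 4 of the 12 ratios were lower and 8 higher, from -0.26 to 0.26, and after quantile normalization 6 were lower and 6 higher. The 13th probe set (234418_x_at) read 14.3 with HOXD9 siRNA and 1.28 with control siRNA, both under the limits of their arrays, and no fold is given for it.

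CHI3L1 gave close values on its 2 bright probe sets and another on its dim one. The signal of 209395_at was 4197 with HOXD9 siRNA and 4768 with control siRNA, a log2 ratio of -0.18, and that of 209396_s_at 4153 with HOXD9 siRNA and 4400 with control siRNA, or -0.08. These 2 ratios differed by less than the spread of 0.18 between probe sets of a gene in the brightest class, and after centering they were 0.12 and 0.22. The dim probe set (216546_s_at) read 11.1 with HOXD9 siRNA, within the background of 18.4, and 33.5 with control siRNA. Taken at the limit, it was at least 1.82-fold lower, a bound that was 1.48-fold after centering. The dim probe set belongs to the dimmest class, where probe sets of a gene had a pooled SD of 0.67, and the log2 ratios of the 2731 filtered probe sets with mean signals between 19.8 and 26.3 ran from -1.73 to 0.87 between the 5th and 95th percentile.

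**Figure D3:**
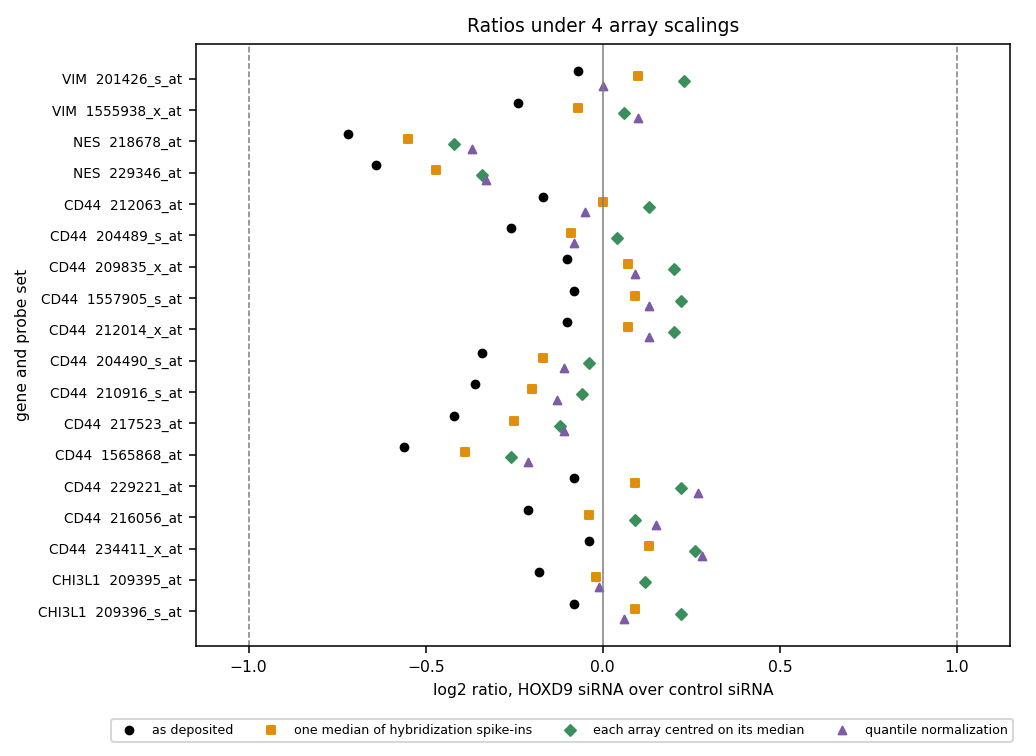
Log2 ratio (x axis, HOXD9 siRNA over control siRNA) of the 18 marker probe sets above background on both arrays (rows) under several array scalings, with dashed lines at 2-fold. Both NES probe sets stay left of 0 under each scaling drawn, whereas most CD44 probe sets and those of VIM and CHI3L1 lie left of 0 as deposited and change sides when the arrays are centered.

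No ratio above background on both arrays was had for SOX2, OLIG2, PROM1, GFAP, S100B and MSI1. SOX2 was read by 4 probe sets, with signals from 0.601 to 10.3 with HOXD9 siRNA and from 1.17 to 19.2 with control siRNA. Its brightest (213721_at) read 7.91 with HOXD9 siRNA, under the limit of 18.4, and 19.2 with control siRNA, so that SOX2 was at least 1.04-fold lower on it. None of the 5 other scalings left a bound above 1. A further probe set (214178_s_at) read 3.76 with HOXD9 siRNA and 13.5 with control siRNA, above the control siRNA array's own limit but under that of the HOXD9 siRNA array, which leaves no fold. The remaining pair, 10.3 and 0.601 with HOXD9 siRNA against 1.28 and 1.17 with control siRNA, lay within background on both arrays.

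OLIG2 read 18.2 with HOXD9 siRNA and 15.3 with control siRNA on its brighter probe set (213825_at), and 12.7 with HOXD9 siRNA and 7.48 with control siRNA on the other. Both HOXD9 siRNA signals lay under 18.4, the brighter one barely so, and no fold is given. PROM1 was read by 1 probe set (204304_s_at), with 20.3 with HOXD9 siRNA and 0.481 with control siRNA. It was the only marker probe set above background on the HOXD9 siRNA array alone. Of all 54613 probe sets, 27251 lay above background on that array, and 26586 of these did so on both. Taken at the control siRNA array's limit, the PROM1 probe set was at least 1.79-fold higher. That bound rests on the lower limit of 11.4, and 20.3 is close to the HOXD9 siRNA array's own limit of 18.4. Under the 5 other scalings this bound was between 2.01-fold and 2.22-fold, past the threshold, although the probe set failed the signal filter with a mean of 10.4.

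GFAP, the defining astrocyte filament, had signals of 15.6, 1.35 and 1.07 with HOXD9 siRNA and 2.76, 2.69 and 1.97 with control siRNA on its 3 probe sets. S100B had 3.73 and 2.03 with HOXD9 siRNA and 2.03 and 0.895 with control siRNA, and MSI1 had 1.29 with HOXD9 siRNA and 1.76 with control siRNA on its single probe set. All 6 of these probe sets lay within background on both arrays, so the labelled glioma line showed no signal for GFAP and S100B above the Bacillus probe sets. At this level large ratios were common. Of the 18806 probe sets within background on both arrays, 52.0% had a measured ratio past 2-fold in one direction or the other, and of the 33 marker probe sets 3 were lower and 5 higher by a measured ratio past 2-fold, each of the 8 with at least 1 signal at background.

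The relatives of the markers were divided between signal and background. Of 20 genes related by family, 10 had a probe set above the control siRNA array's limit, 4 passed the signal filter, and 0 read lower and 0 higher past 2-fold, against 4.14% and 0.516% of the 11624 genes that passed. MSI2, the paralog of MSI1, read 257 with HOXD9 siRNA and 305 with control siRNA, a log2 ratio of -0.25 on its brightest probe set, with a range from -0.29 to 0.57 over 7 probe sets above background. CHI3L2, a relative of CHI3L1, read 67.4 with HOXD9 siRNA and 56.6 with control siRNA, a log2 ratio of 0.25. PROM2, the paralog of PROM1, read 37.5 with HOXD9 siRNA and 41.4 with control siRNA, or -0.14. PRPH (peripherin, a neuronal intermediate filament) read 21.9 with HOXD9 siRNA and 15.1 with control siRNA, a log2 ratio of 0.53, and failed the filter. Among the relatives without a probe set above the control siRNA limit were OLIG1, OLIG3, SOX14, SOX21, S100A1 and CHIT1.

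Genes that act with the markers were mostly measured. Of 24 such genes 22 had a named probe set and 19 passed the filter. On the brightest probe set 0 were past 2-fold in either direction. Among all 11624 genes that passed, the shares were only 4.14% lower and 0.516% higher. Their median log2 ratio was -0.21, beside -0.25 for all genes that passed. Ratios of named genes are those of the brightest probe set unless a range is given. Small negative ratios could turn with the scaling, and HMMR, NFIX and the relative CHI3L2 read higher under all 6 scalings. The 5 other scalings mostly raised ratios. The median of all filtered probe sets was -0.28 as deposited and between -0.11 and 0.02 under them. Staying higher therefore does not set these genes apart from others that were higher as deposited.

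For CD44, its ligand osteopontin (SPP1) read 3560 with HOXD9 siRNA and 4388 with control siRNA, a log2 ratio of -0.30, and the hyaluronan-binding proteoglycan versican (VCAN) 1086 with HOXD9 siRNA and 1694 with control siRNA, or -0.64. All 5 VCAN probe sets read lower, from -1.03 to -0.44. The hyaluronan receptor HMMR, also a spindle protein, read 1207 with HOXD9 siRNA and 1042 with control siRNA, or 0.21, with 0.16 on its other probe set. It was the only one of the 12 partner genes with the strongest signals that read higher in the deposited signals. In those signals 79.5% of all probe sets above background on both arrays read lower. By centering, several of the other partners read higher too. Moesin (MSN) and radixin (RDX), which tie CD44 to the actin skeleton, had log2 ratios of -0.24 and -0.13, and MMP14, a protease that cleaves CD44, -0.10.

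For CHI3L1, its receptor IL13RA2 read 1296 with HOXD9 siRNA and 1499 with control siRNA, a log2 ratio of -0.21, and LGALS3, a galectin that binds it, 2677 with HOXD9 siRNA and 2815 with control siRNA, or -0.07. Plectin (PLEC), which links vimentin filaments, had -0.08. TCF12 and TCF3, dimerization partners of OLIG2, had -0.22 and -0.43. NFIB, of a family of factors that drive GFAP in astrocytes, read 473 with HOXD9 siRNA and 620 with control siRNA, or -0.39. Of the same family but with weaker signals than the 12 named partners, NFIX read 235 with HOXD9 siRNA and 196 with control siRNA, or 0.26. Its other probe set above background had -0.83, and NFIA had -0.18. Being above background was a condition for naming these 12 partners, and VCAN had the lowest ratio among them. ESRP1, AGER and POU3F2 had no probe set above the control siRNA array's limit.

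The marker lists of other cell types and glioma types placed these 10 genes in context. Of 16 reported mesenchymal glioma genes, 16 had a probe set above the control siRNA array's limit, against 72.5% of all named genes, and 15 passed the filter. Their median log2 ratio was -0.18 and the values ran from -0.73 to 0.11. Of 9 proneural glioma genes 5 lay above the limit, of 13 astrocyte genes 10, of 14 neural stem and progenitor genes 10, of 10 oligodendrocyte genes 7 and of 11 neuron genes 7. Of genes of cells that a pure line should lack, 3 of 7 for microglia and immune cells, 4 of 6 for endothelium and pericytes and 5 of 6 for fibroblasts lay above it. Over all 11 lists 72 genes passed the filter. On the brightest probe set 0 of them read lower and 0 higher past 2-fold, against 4.14% and 0.516% of all genes that passed. Over all 181 probe sets of list genes above background on both arrays, 6 (3.31%) read lower past 2-fold and 0 higher, against 4.15% and 0.560% of all such probe sets. The lower ones were 1 each of HES1 (-1.33), CSPG4 (-1.22), NF2 (-1.05), APOE (-1.03), VCAN (-1.03) and NFIA (-1.01).

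Some genes of these lists are named here after their values were seen. EGFR, a receptor often amplified in glioblastoma and listed here with the neural stem cell genes, read 853 with HOXD9 siRNA and 1188 with control siRNA, a log2 ratio of -0.48. All 6 EGFR probe sets above background read lower, from -0.99 to -0.23. SOX4, a SOX factor of progenitors on the proneural list, read 171 with HOXD9 siRNA and 276 with control siRNA, or -0.69. Its 4 probe sets above background ran from -0.91 to -0.10. RELB, an NF-kappaB subunit of the mesenchymal list, read 40.6 with HOXD9 siRNA and 67.4 with control siRNA, or -0.73. As deposited, 81.9% of all filtered probe sets read lower. Of the filtered genes, 5 of 6 neural stem cell, 3 of 4 proneural and 12 of 15 mesenchymal genes did so, near that share. The others read higher, FUT4 at 0.54 (but -0.80 on its other probe set), BCAN and TRADD at 0.11, TIMP1 at 0.10 and WWTR1 at 0.01. Of the 8 astrocyte genes that passed the filter, 4 read lower in the deposited signals, GLUL at -0.51, APOE at -0.34, GJA1 at -0.22 and CLU at -0.16, and the other 4 higher, ALDH1L1 at 0.32, SOX9 at 0.17, ALDOC at 0.15 and SLC1A3 at 0.06. The median of the 8 astrocyte genes was -0.05 and that of the 6 neural stem cell genes -0.32, beside -0.25 for all genes, and whether the lists differ was not tested. AQP4, SLC1A2 and FABP7 of the astrocyte list, like GFAP and S100B, had no probe set above the control siRNA array's limit.

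**Figure D4:**
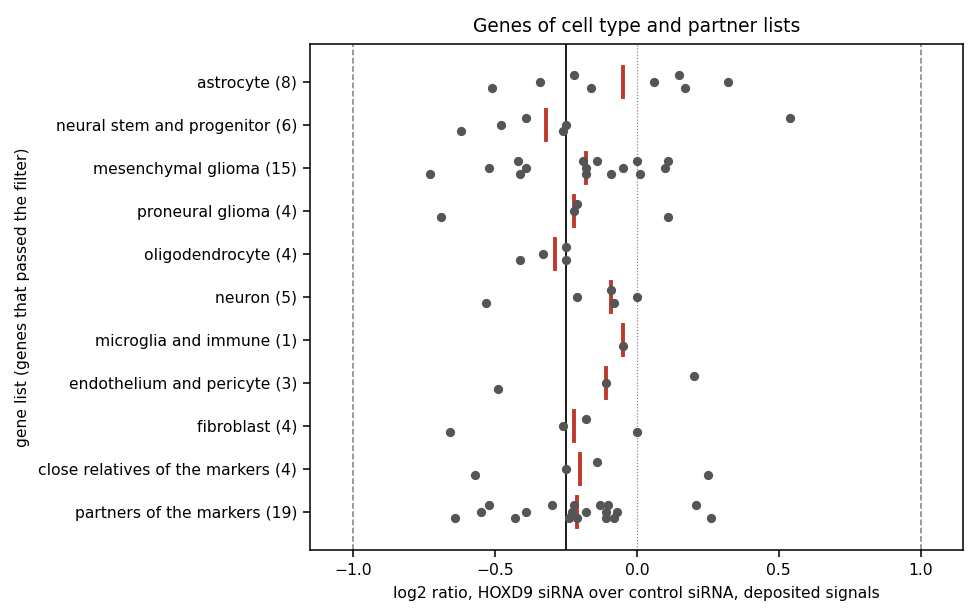
Log2 ratio (x axis, HOXD9 siRNA over control siRNA, deposited signals) of each gene that passed the signal filter in 11 lists (rows, number of genes in parentheses), with the list's median as a red bar, the median of all genes (-0.25) as a black line and 2-fold as dashed lines. On its brightest probe set no gene of the lists passes 2-fold, and the values run from -0.73 to 0.54.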

How the data were processed

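RNA of U87 cells was hybridized to Affymetrix Human Genome U133 Plus 2.0 arrays, 1 per condition. The authors deposited 1 signal intensity for each probe set of an array, on a linear scale. Per the labels, GCOS was used, and the paper's methods name GeneSpring for analysis. How the arrays were scaled and which probe sets were called present is not stated, and precision is limited by the number of arrays.

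After 62 control probe sets were set aside, log2 ratios of HOXD9 siRNA over control siRNA were computed from the deposited intensities. Gene names came from GEO's annotation of the platform (41091 with 1 gene, 1801 with several, 11721 unnamed here), and symbols were updated through Entrez gene numbers, of which 41037 matched RefSeq. A signal at or under the highest of 27 Bacillus probe sets of its own array was called background. Where 1 signal was, the difference is a bound, the other signal over that limit, and where both were, none is given. Genes of the lists took their brightest probe set with a mean signal of at least 19.8, the median of all. The spread between probe sets of a gene was pooled in 3 signal classes.

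Named genes were all probe sets of the 10 markers, HOXD9, list genes past 2-fold, and up to 12 relatives or partners above background on both arrays in order of signal. Other genes of the lists were named after their values were seen. The markers and lists were chosen with earlier results of these data known. List genes without a named probe set (8 of 134) are not reported here.

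The arrays were also centered on the median, scaled to a trimmed mean (2% off each end) or to 18 hybridization spike-in probe sets, quantile normalized, or freed of a loess trend (fraction 0.3). The procedure was tested on simulated data with large changes placed in brighter probe sets only. That test does not cover dim signals, bounds or small ratios. Python 3.11.15, numpy 2.4.6, pandas 2.3.3, statsmodels 0.14.6 and matplotlib 3.10.9 were used.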

Additional observations from a re-analysis of the deposited data

How the results depend on the processing

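Array scaling decided the direction of the small ratios. As deposited, by centering, by a common trimmed mean, by spike-ins (chosen after seeing the data), by quantile normalization and by loess, the number of the 18 measurable marker probe sets that read lower was 18, 6, 6, 11, 9 and 9. On the brightest probe set, the log2 ratio was 0.23 by centering and 0.21 by the trimmed mean for VIM, 0.13 and 0.10 for CD44, and 0.12 and 0.09 for CHI3L1, all below 0 as deposited. That of NES was -0.37 by quantile normalization and -0.38 by loess. The mean over all CHI3L1 probe sets was -0.62 with the measured ratio of its dim probe set, whose HOXD9 siRNA signal is at background, and -0.38 with that signal taken at the limit (chosen after seeing the data). The count of markers higher by more than 2-fold was 1 (PROM1) under each of the 5 other scalings. The count of markers lower past 2-fold and the counts for the lists, on the brightest probe set, were 0 under every setting run.

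Over all filtered probe sets, the numbers lower and higher past 2-fold were 1432 and 168 as deposited, 452 and 413 by centering, 497 and 381 by the trimmed mean, 761 and 269 by spike-ins, 403 and 437 by quantile normalization and 418 and 433 by loess. Without the signal filter 424 were higher, and with a filter at the 70th percentile 482 were lower and 2 higher, of fewer probe sets. Of the 70 list genes that passed the signal filter and were above background on both arrays, 35 changed direction by centering and 17 by spike-ins.

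With the higher Bacillus limit, 18.4, on both arrays, 20 marker probe sets lay above background on the control siRNA array, with the median signal of the array 19, and with the 95th percentile of the Bacillus probe sets 22. The background limit rests on few probe sets, the next highest being 14.9 on the HOXD9 siRNA array and 11.3 on the control siRNA array. No replicate could be left out, and no paired analysis was possible because each condition had 1 array.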
